A study of Mus musculus with 6 samples.

Results

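The mouse mitochondrial genome (mtDNA) carries 37 genes, and the deposited expression table lists all 37 of them among its 54532 genes. They were taken as every row that the table places on chromosome MT, and they comprise 13 mRNAs, 2 rRNAs and 22 tRNAs. By position, 28 lie on the plus strand and 9 on the minus strand (mt-Nd6 and 8 tRNAs), which by convention are called the heavy-strand and the light-strand genes. The values came from RNA sequencing of heart tissue, with 3 hearts in each of 2 groups, to ask how the transcriptome differs when the mitochondrial ribosomal protein gene Mrps5 is deleted in adult cardiomyocytes. Control mice (Ctrl) were Mrps5 fl/fl, with both Mrps5 alleles flanked by loxP sites. Conditional knockout mice (cKO) were Mrps5 fl/fl; MCM, which adds the tamoxifen-inducible Cre recombinase MerCreMer under the cardiomyocyte αMHC promoter. Both groups received tamoxifen at 45 mg/kg/day for 5 days from 8 weeks of age, and hearts were taken 12 weeks later. Because the Ctrl mice carry no MCM transgene, loss of Mrps5 and the activated transgene cannot be told apart, and the tissue also holds cells in which αMHC is not active and Mrps5 is kept.

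Mammalian mtDNA is transcribed from a non-coding control region into long RNAs that cover almost the whole heavy or light strand. The tRNAs lie between most of the mRNAs and rRNAs like punctuation, and their excision releases the flanking RNAs. The mRNAs encode subunits of respiratory complexes I, III and IV and of ATP synthase (complex V), the rRNAs form the core of the mitochondrial ribosome in which MRPS5 sits, and the tRNAs serve translation within the organelle. Heart muscle is rich in mitochondria, and mtDNA transcripts are among its most abundant RNAs.

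The libraries held 15989322 to 24875499 reads assigned to genes, and mtDNA genes took between 16.2% and 22.0% of them. Mrps5 was at 5.20, 6.45 and 6.33 FPKM (fragments per kilobase, adjusted for library size) in Ctrl against 1.12, 1.23 and 1.31 FPKM in cKO hearts, which kept 20.4% of its level. One library, cKO replicate 2, stood apart in sex-linked RNA, with Xist at 10.7 FPKM against at most 0.127 FPKM in the other 5 hearts. The atrial light chain gene Myl7 ranged from 18.1 to 679 FPKM in Ctrl and from 71.8 to 495 FPKM in cKO hearts, highest in Ctrl replicate 1 and cKO replicate 3. All 8 cardiomyocyte marker genes were detected, and 6 of them were lower in cKO, where 17.0% of all tested genes were lower. Their summed FPKM was 16596 to 21139 in Ctrl and 10022 to 17175 in cKO hearts. None of the 4 atrial markers passed the test (summed FPKM 128 to 2052 in Ctrl and 575 to 1652 in cKO hearts), and 3 of 4 endothelial markers were lower, their sum falling from 103–119 to 67.6–80.0 FPKM. The part of these cell type markers in the mtDNA results was not tested, and in bulk tissue fewer cells of a type and less RNA per cell cannot be told apart.

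In these libraries, selected for poly-A tails, the mtDNA transcriptome of cKO hearts was lower as a whole, but its genes did not move together. All values cover only the RNA that this selection retained, and a part of tail length in the differences was not tested. Reads of the 13 mRNAs made up 20.5%, 21.1% and 19.0% of all reads in Ctrl and 18.2%, 15.7% and 17.9% in cKO hearts. The rRNAs went from 0.782% ± 0.0381 to 0.505% ± 0.0741 of reads and the tRNA genes from 0.0900% ± 0.00374 to 0.0631% ± 0.0124 (SD, n = 3 each). For each of the 3 classes every cKO heart lay below every Ctrl heart (exact permutation, two-sided, p = 0.1, the smallest that 3 against 3 hearts allow).

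Gene by gene, fold changes were fitted on log2(FPKM + 1) over all 12944 genes that averaged 0.5 FPKM or more, and a gene was called at an adjusted p under 0.05. A tRNA gene was described with its values when it had a mean of at least 50 reads, which left 15 of the 22 tRNAs and 30 of the 37 genes. Of these 30, 15 were lower and 1 was higher in cKO, with a median log2 fold change of -0.62, against 17.0% of all tested genes called lower, 16.3% called higher and a median of -0.02. In 20 of the 30 all cKO hearts lay below all Ctrl hearts and in 2 above them, where 26.4% and 24.8% of all tested genes did so. The split over all genes depends on scaling: with each library scaled to its own total of reads, the calls were 1381 lower and 3274 higher in place of 2205 and 2110, and the median of all genes moved to 0.09.

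**Figure D1:**
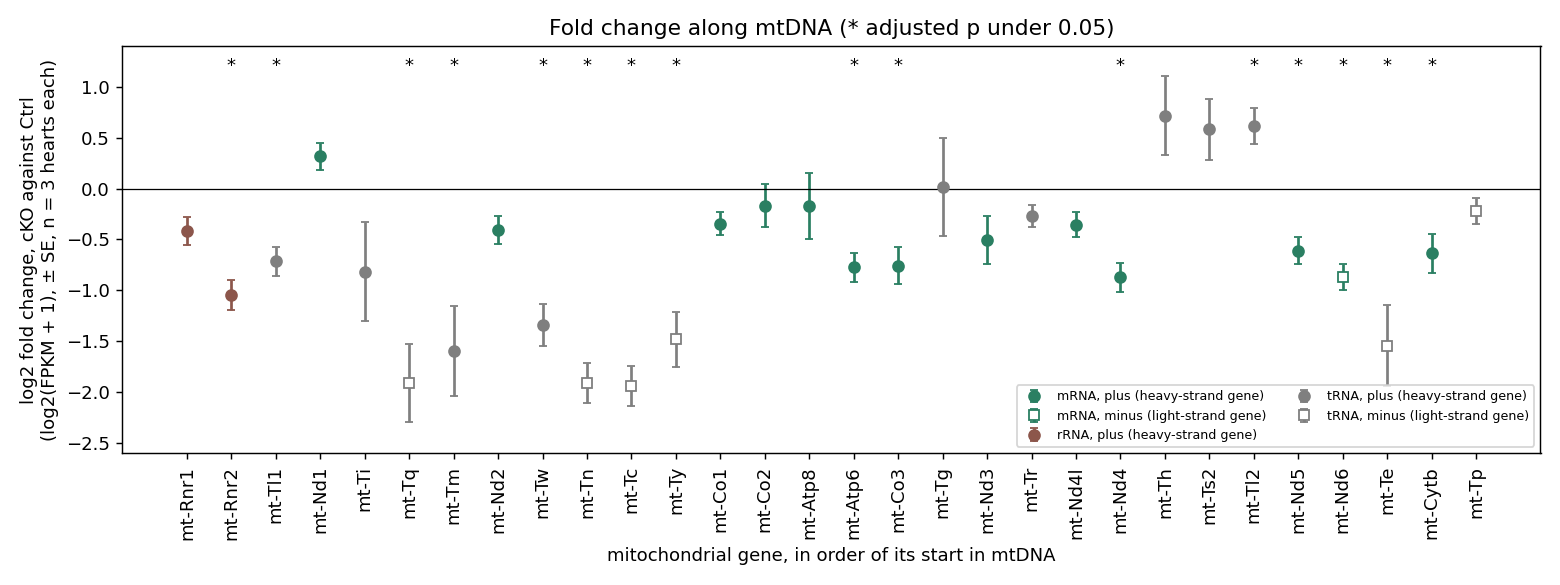
Log2 fold change of cKO against Ctrl hearts on log2(FPKM + 1) (y axis, ± SE, n = 3 hearts per group) for the 30 mtDNA genes with enough reads, in the order of their start (x axis). Filled circles are heavy-strand and open squares light-strand genes, and asterisks mark an adjusted p under 0.05. mt-Nd1 and the neighbouring mt-Th, mt-Ts2 and mt-Tl2 stand above 0 by 0.31 to 0.72, and mt-Tq, mt-Tn and mt-Tc stand lowest, at -1.91 to -1.94.

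Complex I takes electrons from NADH, and mtDNA encodes 7 of its subunits, all in the membrane arm. Of these 7, mt-Nd4, mt-Nd5 and mt-Nd6 were lower in cKO, and mt-Nd1 was the exception in direction. mt-Nd1 (MT 2751–3707, plus strand) was at 24311, 26246 and 20759 FPKM in Ctrl against 31164, 28311 and 28875 FPKM in cKO hearts. All 3 cKO hearts were above all 3 Ctrl hearts, but the log2 fold change of 0.31 (SE 0.13) did not pass the test (adjusted p = 0.102). With scaling to total reads it was 0.47 (adjusted p = 0.0131), a size that exceeds the shift of all genes under that scaling, and with scaling to the total without mtDNA genes it was 0.41 (adjusted p = 0.0302).

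mt-Nd4 (MT 10167–11544) was at 13982, 15488 and 12267 FPKM in Ctrl against 8045, 6480 and 8293 FPKM in cKO hearts. The groups did not overlap, and cKO hearts kept 54.7% of the Ctrl mean (a log2 change of -0.87, SE 0.14, adjusted p = 0.00551). mt-Nd5 (MT 11742–13565) went from 9533, 11798 and 10056 FPKM to 7120, 6029 and 7423 FPKM, 65.5% of Ctrl and again without overlap (-0.61, SE 0.13, adjusted p = 0.0138). mt-Nd6 (MT 13552–14070), the one mRNA on the light strand, went from 9158, 9958 and 8265 FPKM to 5400, 4372 and 5257 FPKM. It kept 54.9% of the Ctrl mean with no overlap (-0.87, SE 0.13, adjusted p = 0.00364). The ends of mt-Nd5 and mt-Nd6 share 14 bases on opposite strands, and mt-Nd4l and mt-Nd4 share 7 on the same strand. The libraries did not mark strand as far as the kit is described, so a read cannot be told from one of the antisense RNA.

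The other complex I mRNAs had negative values that did not pass. mt-Nd2 (MT 3914–4951) was at 17539 ± 1515 FPKM in Ctrl and 13289 ± 1846 in cKO hearts (adjusted p = 0.0617) and mt-Nd4l (MT 9877–10173) at 2545 ± 192 and 2000 ± 268 (adjusted p = 0.0708). For both, the cKO hearts lay below all Ctrl hearts. mt-Nd3 (MT 9459–9806) was at 1045 ± 194 and 746 ± 204 FPKM, and its groups overlapped (adjusted p = 0.139).

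Cytochrome b, encoded by mt-Cytb (MT 14145–15288), is the one mtDNA-encoded subunit of complex III, which passes electrons to cytochrome c. Its mRNA was at 30858, 35565 and 29322 FPKM in Ctrl against 24675, 15639 and 22243 FPKM in cKO hearts. All cKO hearts were below Ctrl, with replicate 2 far below the other cKO hearts, and the log2 fold change was -0.64 (SE 0.19, adjusted p = 0.0417). The call is the least stable of the mRNAs: it was lost in 11 of 17 alternatives, among them leaving out cKO replicate 2 (-0.44, adjusted p = 0.0701), cKO replicate 3 (adjusted p = 0.0701) or Ctrl replicate 1, 2 or 3 (0.0867, 0.111 and 0.0835).

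Complex IV, cytochrome c oxidase, has its catalytic core from mtDNA. mt-Co1 (MT 5328–6872) was the most abundant of the 13 mRNAs in every heart, at 53018, 56991 and 49433 FPKM in Ctrl and 41292, 41070 and 43021 FPKM in cKO hearts. The groups did not overlap, yet the change of -0.34 (SE 0.12) did not pass (adjusted p = 0.0583). mt-Co2 (MT 7013–7696) overlapped between groups, at 5555 ± 274 and 5081 ± 1436 FPKM (-0.17, adjusted p = 0.567). mt-Co3 (MT 8607–9390) was called lower, from 1714, 1950 and 2472 FPKM to 1273, 970 and 1383 FPKM (-0.76, SE 0.18, adjusted p = 0.0196). No cKO heart reached the lowest Ctrl heart. Without Ctrl replicate 2 or without Ctrl replicate 3 the mt-Co3 call was lost (adjusted p = 0.0511 and 0.0590).

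ATP synthase makes ATP from the proton gradient, and both of its mtDNA-encoded subunits are in the membrane-embedded part. mt-Atp6 (MT 7927–8607) was at 4387, 4037 and 3815 FPKM in Ctrl against 2016, 2338 and 2860 FPKM in cKO hearts. It kept 58.9% of the Ctrl mean without overlap (-0.77, SE 0.14, adjusted p = 0.00808). mt-Atp8 (MT 7766–7969), with which mt-Atp6 shares 43 bases, varied as widely within as between groups, at 241 ± 95.7 and 210 ± 64.6 FPKM (adjusted p = 0.709).

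Across the 13 mRNAs, 6 were therefore called lower and 0 higher (limma), with 9 lower and 1 higher (mt-Nd1) at an unadjusted p under 0.05. By voom on the recovered reads 9 were lower and 0 higher. Their median log2 fold change was -0.51, and in 9 of 13 the cKO hearts all lay below Ctrl. Among all tested genes 17.0% were called lower by limma, and in 26.4% the cKO hearts all lay below Ctrl. Without the filter on low values, where 26855 genes were tested, 0 of 13 were called by limma and 4 were lower at an unadjusted p under 0.05. Without the hearts highest in Myl7 (Ctrl replicate 1 and cKO replicate 3) 4 were lower, and 5 were lower without cKO replicate 2.

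**Figure D2:**
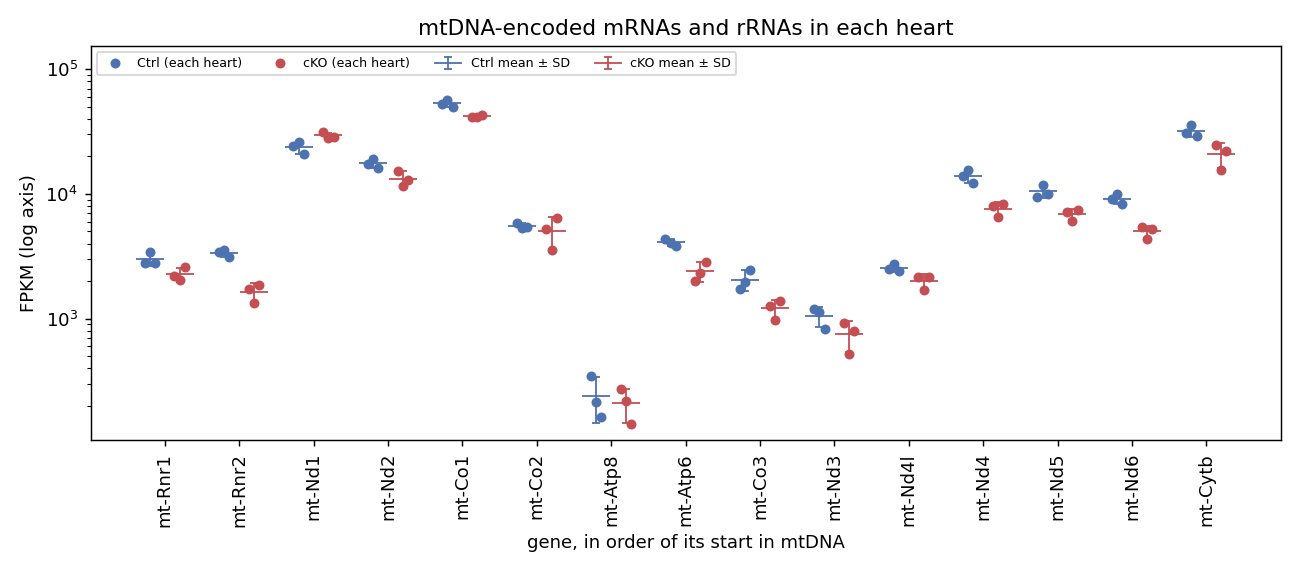
FPKM (y axis, log scale) of the 13 mRNAs and 2 rRNAs of mtDNA in each heart, in the order of their start (x axis), with blue points for Ctrl and red points for cKO hearts and the mean ± SD (n = 3) beside them. The cKO points lie below all Ctrl points for 9 mRNAs and both rRNAs, and above them for mt-Nd1.

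The make-up of the mRNA pool shifted with these differences. mt-Nd1 contributed 14.0%, 13.8% and 12.9% of the summed FPKM of the 13 mRNAs in Ctrl and 21.5%, 23.0% and 20.4% in cKO hearts. mt-Cytb contributed 17.7%, 18.7% and 18.2% in Ctrl and 17.0%, 12.7% and 15.7% in cKO hearts. So mt-Cytb was above mt-Nd1 in every Ctrl heart and below it in every cKO heart. The share of mt-Nd4 went from 7.92% ± 0.278 to 5.56% ± 0.286 and that of mt-Nd6 from 5.20% ± 0.0709 to 3.66% ± 0.0920. Shares of 7 mRNAs did not overlap between groups (mt-Nd1 up, and mt-Atp6, mt-Co3, mt-Nd4, mt-Nd5, mt-Nd6 and mt-Cytb down), each at an exact permutation p of 0.1 and 0.186 after adjustment over the 13. By FPKM, the cKO hearts all lay below Ctrl in 26.4% of all tested genes and all above in 24.8%. Shares add up to a fixed total, so a larger share of mt-Nd1 lowers the others, and the 7 are not separate results. mt-Co1 held 30.3% ± 0.379 in Ctrl and 30.8% ± 2.49 in cKO hearts, and mt-Nd4l 1.45% and 1.46%.

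To compare mtDNA genes with each other, each heart was also centred on its mean log2(FPKM + 1) of the 13 mRNAs. Relative to that mean, 10 of the 30 genes were lower and 4 higher in cKO. Among all tested genes 2.61% were lower and 53.6% higher on this scale, since the mRNAs used as the reference had fallen. mt-Nd1 was higher by 0.79 relative to the mean of the 13 mRNAs, of which it is part (SE 0.18, adjusted p = 0.00354). mt-Nd4 and mt-Nd6 were lower by -0.40 (adjusted p = 0.0489) and -0.39 (adjusted p = 0.0419). Both of these lower calls lay close to the threshold. With the median mRNA as reference, 7 genes in place of 10 were lower. The other 10 mRNAs lay between -0.30 (mt-Atp6) and 0.31 (mt-Co2) and did not pass.

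The 2 rRNAs, 12S (mt-Rnr1) and 16S (mt-Rnr2), open the heavy-strand transcript. The libraries were selected for poly-A tails, so the values cover only the rRNA that this selection retained. mt-Rnr1 (MT 70–1024), the RNA of the small subunit that holds MRPS5, was at 2804, 3450 and 2804 FPKM in Ctrl and 2178, 2021 and 2579 FPKM in cKO hearts. The groups did not overlap, and the change of -0.42 (SE 0.13) did not pass (adjusted p = 0.0511). It passed by voom (adjusted p = 0.0299) and without cKO replicate 3 (adjusted p = 0.0391). mt-Rnr2 (MT 1094–2675), the RNA of the large subunit, fell further, from 3423, 3544 and 3113 FPKM to 1741, 1322 and 1874 FPKM. It kept 49.0% of the Ctrl mean (-1.04, SE 0.15, adjusted p = 0.00322), and was lower also relative to the mRNA mean (-0.57, SE 0.14, adjusted p = 0.00511).

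The ratio of mt-Rnr2 to mt-Rnr1 FPKM was 1.22, 1.03 and 1.11 in Ctrl and 0.799, 0.654 and 0.727 in cKO hearts. Of the nearest genes downstream of mt-Rnr2, mt-Tl1 was lower as well, and mt-Nd1 had the opposite sign without passing the test. mt-Nd1 starts after mt-Rnr2 and a single tRNA gene, mt-Tl1, and the ratio of mt-Nd1 to mt-Rnr2 FPKM was 7.10, 7.40 and 6.67 in Ctrl and 17.9, 21.4 and 15.4 in cKO hearts. These ratios were chosen after the values were seen, and neither overlapped between groups (exact permutation p = 0.1 each, the smallest possible). Summed over both rRNAs, rRNA FPKM was 3.84% ± 0.0551 of the 12 heavy-strand mRNAs in Ctrl and 2.96% ± 0.257 in cKO hearts, a log2 difference of -0.38 (exact permutation p = 0.1).

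The tRNA genes, for which a dependence on position along mtDNA was not tested, gave both the largest decreases and the one called increase. Each is 59 to 75 bases long, shorter than the fragments for which the libraries were size-selected, so a read counted there belonged to a longer RNA or fragment and does not measure mature tRNA. The sequences of the 9 tRNA genes on which the description turns are shown 5′ to 3′ as transcribed, from GENCODE release M21 (GRCm38), in DNA letters with the anticodon in capitals. The first 4 are light-strand tRNA genes on either side of mt-Nd2 that were called lower, for glutamine, asparagine, cysteine and tyrosine.
mt-Tq: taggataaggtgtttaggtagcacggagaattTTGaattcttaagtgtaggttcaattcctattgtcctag
mt-Tn: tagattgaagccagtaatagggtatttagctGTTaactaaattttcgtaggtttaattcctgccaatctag
mt-Tc: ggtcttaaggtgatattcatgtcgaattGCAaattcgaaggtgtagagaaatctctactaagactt
mt-Ty: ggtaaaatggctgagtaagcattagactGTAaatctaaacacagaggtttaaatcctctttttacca
The next pair, for glutamic acid and proline, are the light-strand tRNA genes nearest the control region.
mt-Te: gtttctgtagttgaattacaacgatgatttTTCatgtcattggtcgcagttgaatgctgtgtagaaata
mt-Tp: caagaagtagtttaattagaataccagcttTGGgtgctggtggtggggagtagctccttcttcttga
The last 3 adjoin each other on the heavy strand between mt-Nd4 and mt-Nd5, for histidine, serine and leucine, and had log2 fold changes of 0.58 to 0.72.
mt-Th: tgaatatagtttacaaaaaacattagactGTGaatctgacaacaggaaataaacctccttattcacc
mt-Ts2: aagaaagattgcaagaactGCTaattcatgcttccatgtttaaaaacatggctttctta
mt-Tl2: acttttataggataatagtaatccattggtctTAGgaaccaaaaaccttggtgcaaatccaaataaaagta

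Light-strand genes are read from the control region in the order mt-Tp, mt-Te, mt-Nd6, and later mt-Ty, mt-Tc, mt-Tn and mt-Tq. mt-Tp (MT 15356–15422), the first of them, was at 4221, 4715 and 3844 FPKM in Ctrl against 3751, 3201 and 4033 FPKM in cKO hearts. The groups overlapped (-0.22, SE 0.13, adjusted p = 0.227). mt-Te (MT 14071–14139) was at 766, 707 and 572 FPKM in Ctrl and 381, 119 and 274 FPKM in cKO hearts. It kept 37.8% of the Ctrl mean (-1.54, SE 0.39, adjusted p = 0.0244), with no overlap between groups. The mt-Te call was lost without Ctrl replicate 1, 2 or 3 (adjusted p = 0.0728, 0.0720 and 0.0528).

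In the cluster between mt-Nd2 and mt-Co1 each tRNA gene with enough reads was lower. mt-Tc (MT 5192–5257) was at 3064, 3031 and 2899 FPKM in Ctrl and 921, 559 and 929 FPKM in cKO hearts, from 861 to 4628 reads per heart. The cKO hearts kept 26.8% of the Ctrl mean, far outside the spread within groups (-1.94, SE 0.20, adjusted p = 0.00145). mt-Tn (MT 5089–5159) went from 2425, 2621 and 2498 FPKM to 813, 483 and 768 FPKM, or 27.3% of Ctrl (-1.91, SE 0.20, adjusted p = 0.00146). mt-Ty (MT 5260–5326) went from 633, 557 and 550 FPKM to 296, 133 and 224 FPKM, or 37.5% of Ctrl (-1.48, SE 0.27, adjusted p = 0.00747). All 3 light-strand genes of the cluster with enough reads were thus without overlap between groups. The ratio of mt-Tn to mt-Tp FPKM, chosen after the values were seen, was 0.575, 0.556 and 0.650 in Ctrl and 0.217, 0.151 and 0.190 in cKO hearts.

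The decrease in that stretch was found at genes annotated on either strand. mt-Tw (MT 4950–5016), the heavy-strand tryptophan tRNA gene at the head of the same cluster, went from 264, 175 and 184 FPKM to 98.8, 64.6 and 80.1 FPKM. It kept 39.1% of the Ctrl mean (-1.34, SE 0.20, adjusted p = 0.00405), with no overlap. On the other side of mt-Nd2, the light-strand mt-Tq (MT 3772–3842) went from 157, 148 and 154 FPKM to 49.9, 19.9 and 63.8 FPKM (-1.91, SE 0.38, adjusted p = 0.0106). Next to it the heavy-strand methionine tRNA gene mt-Tm (MT 3845–3913) went from 133, 130 and 126 FPKM to 81.3, 19.9 and 46.1 FPKM (-1.60, SE 0.44, adjusted p = 0.0317). Both were below Ctrl in every cKO heart, and mt-Tm lost its call without Ctrl replicate 1, 2 or 3 or cKO replicate 3 (adjusted p = 0.0666 to 0.0846). mt-Ti (MT 3706–3774), which shares 3 bases with mt-Tq, was at 178 FPKM in cKO replicate 1 and at 42.8 and 53.0 FPKM in the other cKO hearts, against 120 to 145 FPKM in Ctrl. Its change of -0.82 (adjusted p = 0.238) became -1.44 (adjusted p = 0.00308) without cKO replicate 1. Since no separation of reads by strand is stated, RNA of either strand cannot be told apart in these counts.

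Between the rRNAs and mt-Nd1, the leucine tRNA gene mt-Tl1 (MT 2676–2750) went from 549, 473 and 480 FPKM to 340, 246 and 336 FPKM, 61.4% of Ctrl without overlap (-0.72, SE 0.14, adjusted p = 0.0107). It moved in the direction of mt-Rnr2 upstream, and opposite in sign to mt-Nd1 downstream.

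mt-Tl2 (MT 11671–11741) was the one mtDNA gene called higher. It was at 1343, 1174 and 1149 FPKM in Ctrl against 2435, 1499 and 1782 FPKM in cKO hearts, and the cKO mean was 156% of that in Ctrl. No cKO heart was as low as the highest Ctrl heart (0.61, SE 0.18, adjusted p = 0.0388). The call was lost without Ctrl replicate 1, 2 or 3 and without cKO replicate 1 or 3 (adjusted p = 0.0619 to 0.113), and it held without cKO replicate 2 (adjusted p = 0.0166). Its neighbours mt-Th (MT 11546–11612) and mt-Ts2 (MT 11613–11671) had values of the same sign. mt-Th was at 106, 116 and 186 FPKM in Ctrl and 379, 199 and 135 FPKM in cKO hearts (0.72, SE 0.39, adjusted p = 0.193). mt-Ts2 was at 136, 121 and 156 FPKM in Ctrl and 344, 162 and 154 FPKM in cKO hearts (0.58, SE 0.30, adjusted p = 0.179). For both the groups overlapped and cKO replicate 1 was the highest heart. Relative to the mRNA mean all 3 were higher, mt-Th by 1.19 (adjusted p = 0.00675), mt-Ts2 by 1.06 (adjusted p = 0.00268) and mt-Tl2 by 1.09 (adjusted p = 0.000147). On that scale 53.6% of all tested genes were called higher and their median was 0.46, since the reference mRNAs had fallen. mt-Nd4 and mt-Nd5, on either side of these 3 tRNA genes, were called lower in the plain comparison.

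The remaining heavy-strand tRNA genes with enough reads did not pass. mt-Tg (MT 9391–9458) was at 71.4 to 83.3 FPKM in Ctrl and spread from 36.2 to 166 FPKM in cKO hearts, and its fitted value of 0.02 changed sign in 3 alternatives. mt-Tr (MT 9808–9875) was at 42.1 ± 4.82 FPKM in Ctrl and 34.5 ± 2.68 in cKO hearts (-0.27, adjusted p = 0.0901), without overlap.

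**Figure D3:**
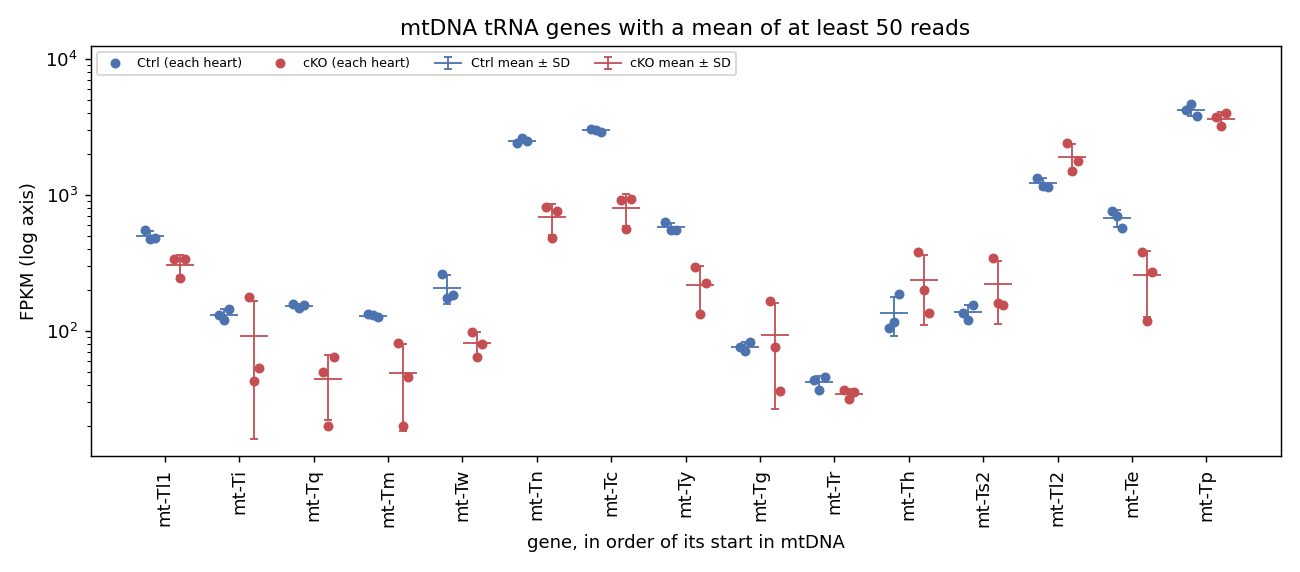
FPKM (y axis, log scale) of the 15 mtDNA tRNA genes with a mean of at least 50 reads, in the order of their start (x axis), with blue points for Ctrl and red points for cKO hearts and the mean ± SD (n = 3) beside them. The cKO points are well below Ctrl from mt-Tq to mt-Ty (26.8% to 39.1% of the Ctrl mean), above Ctrl for mt-Tl2, and overlap Ctrl for mt-Tp.

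Of the 15 tRNA genes with enough reads, 8 were lower and 1 higher in cKO, against 17.0% and 16.3% of all tested genes. Reads at neighbouring tRNA genes can come from the same longer RNA, so these genes are not independent of each other. By strand, 5 of 6 light-strand tRNA genes were lower and 0 higher (limma, also 0 higher at an unadjusted p under 0.05 and by voom), with a median of -1.72, and of 9 heavy-strand tRNA genes 3 were lower and 1 higher, with a median of -0.27. Relative to the mRNA mean the same 5 light-strand tRNA genes were lower, while mt-Tp was at 0.25 (adjusted p = 0.147). Light-strand tRNA genes took 79.6%, 82.5% and 79.9% of all mtDNA tRNA reads in Ctrl and 59.8%, 65.0% and 69.4% in cKO hearts (exact permutation p = 0.1). Without the hearts highest in Myl7, 4 of the 15 were called lower (mt-Tq, mt-Tw, mt-Tn and mt-Tc) and 0 higher, with 8 and 1 at an unadjusted p under 0.05.

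The other 7 tRNA genes had 0 to 52 reads in any heart. mt-Tf had 0 reads in all 6 libraries, which allows up to 3 in each. mt-Tv, mt-Tk and mt-Tt had at most 9 reads. Past the threshold were mt-Ta, with 33, 52 and 52 reads in Ctrl and 17, 16 and 17 in cKO hearts (-1.36, adjusted p = 0.00290), mt-Ts1, with 2, 2 and 1 against 0, 0 and 1 reads, and mt-Td, with 4, 2 and 1 against 0, 0 and 0 reads. mt-Ta lies in the cluster with mt-Tn and mt-Tc and moved as they did. The reads of mt-Ts1 and mt-Td are too few to give a fold.

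For the mRNAs, the strand contrast was taken as mt-Nd6 against the summed FPKM of the 12 heavy-strand mRNAs. It was 5.55%, 5.51% and 5.40% in Ctrl and 3.87%, 3.69% and 3.85% in cKO hearts. The spread within each group was small beside this difference of -0.53 on the log2 scale (exact permutation p = 0.1, the smallest possible). It was -0.62 against only mt-Nd1, mt-Nd2, mt-Nd5 and mt-Cytb. The contrast rests on 1 light-strand mRNA, whose own change (-0.87) was no larger than that of the heavy-strand mt-Nd4 (-0.87). The heavy-strand mt-Atp6 and mt-Co3 were at -0.77 and -0.76, and the remaining heavy-strand mRNAs lay between -0.64 (mt-Cytb) and 0.31 (mt-Nd1). The ratio therefore does not tell a difference between strands from differences between single mRNAs.

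**Figure D4:**
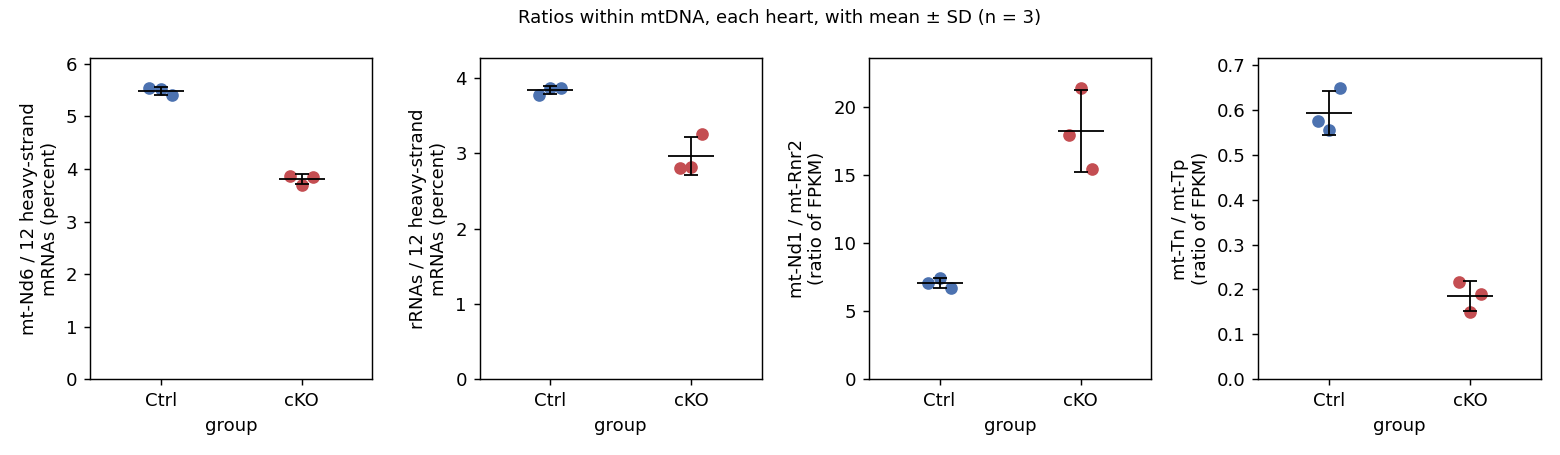
Ratios within mtDNA in each heart (points) with the mean ± SD (black, n = 3) for Ctrl and cKO (x axis), all from 0. From left to right the y axes give mt-Nd6 and the 2 rRNAs as a percent of the summed FPKM of the 12 heavy-strand mRNAs, mt-Nd1 over mt-Rnr2, and mt-Tn over mt-Tp. No ratio overlaps between groups, and the means go from 5.49 to 3.80, 3.84 to 2.96, 7.06 to 18.2 and 0.593 to 0.186.

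Part of mtDNA is also present in the nuclear genome, and 6 of the mRNAs have an annotated copy there. Chromosome 1 (GRCm38, 24611535–24616197, minus strand) carries 6 such rows, whose matches lie between positions 6381 and 11042 of mtDNA. mt-Atp8, mt-Nd4l and the tRNA genes mt-Tg and mt-Tr lie within the same span but have no annotated row of their own there. Gm28661, Gm10925, Gm28437 and Gm28439 had 0 differences from mt-Co2, mt-Atp6, mt-Co3 and the first 876 bases of mt-Nd4 over their length, Gm28438 had 1 from mt-Nd3, and Gm29216 had 6 from the last 492 bases of mt-Co1. A read from inside these stretches that covers none of the differences cannot be assigned by its sequence. How reads with several alignments were counted is not stated. mRNAs wholly within the span had Ctrl means of at most 5555 FPKM (mt-Co2), and all other mtDNA mRNAs had at least 9127 FPKM (mt-Nd6). Whether reads that align to both places were left out of the counts was not tested. Levels, calls and shares of mRNAs within the span may therefore rest on part of their reads, which adding the copies may not restore. The copies took 10.4% to 19.6% of the reads of Gm28661 and mt-Co2 together, 16.1% to 26.1% for Gm10925 and mt-Atp6, 13.4% to 29.6% for Gm28437 and mt-Co3, and 11.0% to 24.0% for Gm28438 and mt-Nd3. For mt-Nd4 and mt-Co1, of which only part is copied, the share was at most 2.88% and 0.683%.

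4 of the 6 copies were called lower in cKO, against 17.0% of all tested genes. Gm28437 went from 652 ± 200 to 239 ± 40.0 FPKM (-1.41, adjusted p = 0.00668), against -0.76 for mt-Co3, and Gm28661 from 1192 ± 185 to 720 ± 35.3 FPKM (-0.72, adjusted p = 0.00717), against -0.17 for mt-Co2. Gm28439 (-1.07) and Gm29216, at 911 ± 191 and 470 ± 183 FPKM, were also lower. With the reads of each copy added to its mtDNA gene, mt-Co2 was at -0.25 (adjusted p = 0.346), mt-Atp6 at -0.72 (adjusted p = 0.00748), mt-Co3 at -0.89 (adjusted p = 0.0103) and mt-Nd4 at -0.88 (adjusted p = 0.00506), and mt-Co1 passed (-0.35, adjusted p = 0.0490). The genes outside the copied stretch include both rRNAs, mt-Nd1, mt-Nd2, mt-Nd5, mt-Nd6, mt-Cytb and the tRNA genes printed above.

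**Figure D5:**
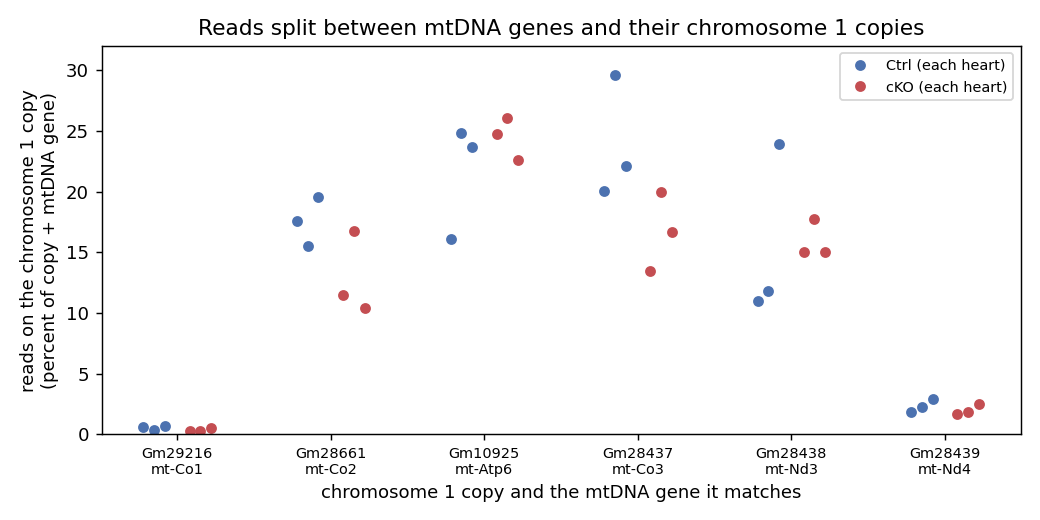
Reads counted on each chromosome 1 copy as a percent of the reads on the copy and its matching mtDNA gene (y axis), for the 6 pairs in mtDNA order (x axis), with a point per Ctrl (blue) and cKO (red) heart. Copies of mt-Co2, mt-Atp6, mt-Co3 and mt-Nd3 took 10.4% to 29.6%, and those of mt-Co1 and mt-Nd4 at most 2.88%.

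Respiratory complexes combine mtDNA-encoded with nuclear-encoded subunits, and the nuclear side fell as well. Called lower were 28 of 36 nuclear subunits of complex I (median log2 fold change -0.43, with Ndufv3 at -0.73), 8 of 9 of complex III (-0.40, with Uqcr11 at -0.71 and Uqcrfs1 at -0.59) and 11 of 16 of complex V (-0.40, with Atp5k at -0.75 and Atp5e at -0.67), with 0 higher in each. In complex IV, 9 of 16 were lower and 2 higher (-0.37), with Cox7a1 at -1.31 and Cox6b2 at -1.10, and Cox6a1 at 1.18 and Cox8a at 1.01. All 4 subunits of complex II, which has none from mtDNA, were lower (Sdhc -0.51, Sdha -0.42). Among all tested genes 17.0% were called lower and 16.3% higher. The mean log2 level of mtDNA-encoded over nuclear-encoded subunits differed between cKO and Ctrl by -0.06 in complex I, -0.22 in complex III, -0.12 in complex IV and -0.09 in complex V. These 4 differences were within the spread between hearts (exact permutation, adjusted p = 0.8 to 0.9 over the 4), which does not show that the ratios were equal. Both mtDNA-encoded subunits of complex V, and mt-Co2 and mt-Co3 of complex IV, lie within the span copied on chromosome 1. The ratios were not run with the copies added or without these genes. In complex I the ratio was 5.17 to 5.43 on the log2 scale in Ctrl and 5.06 to 5.45 in cKO hearts.

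Nuclear genes that act on mtDNA and its RNA were listed as well. Of 17 tested genes of mtDNA transcription and replication, 1 was lower and 0 higher (limma), with a median of -0.08. That gene, Mterf2, a member of the mitochondrial transcription termination factor family, overlaps Tmem263 and was at -0.72 (SE 0.12, adjusted p = 0.00552). Of 34 genes of mtRNA processing and stability 3 were lower and 6 higher, with a median of 0.08, beside 17.0% lower and 16.3% higher among all genes tested, so the share called higher was near that of all genes. The pseudouridine synthase Pus1 was at 0.86 (adjusted p = 0.00273) and Rexo2, an exonuclease for short RNAs, at 0.80 (adjusted p = 0.00334). Elac2, which cuts the 3′ end of mitochondrial tRNAs from the precursor, was higher at 8.29 ± 0.332 FPKM in Ctrl and 13.7 ± 1.70 in cKO hearts (0.66, adjusted p = 0.0036). Lower were Trmt5 (-0.80, adjusted p = 0.0476), a tRNA methyltransferase, Ptcd1 (-0.42, adjusted p = 0.0189), which binds mitochondrial RNA and overlaps Bud31, and Mto1. Elac2 and Mto1 are named here after their values were seen.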

How the data were processed

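RNA of 3 Ctrl and 3 cKO hearts was prepared by the authors from poly-T selected mRNA with a kit that does not mark strand, sequenced as paired ends, aligned with HISAT2 2.0.5 and counted with featureCounts 1.5.0-p3, and DESeq2 1.16.1 was their test (the submitters' notes). The deposited values are FPKM, computed by the authors from counts and gene length. The table's gene length, an other, gene-level value, was deposited with them. Strand, multi-mapping and overlap settings are not given in the sources used here. The notes name the mm9 build, but all 37 mtDNA rows, and 53499 of 54409 shared gene IDs, have the coordinates of GENCODE M21, so coordinates are those of GRCm38.

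FPKM times length gave whole reads for 100% of values (tolerance 0.01 of a read). Worked back from the deposited FPKM, library sizes were 0.913 to 0.980 times the totals in Ctrl and 1.06 times in cKO, so the values were already scaled between hearts.

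Here log2(FPKM + 1), which understates changes of low values, was fitted with limma 3.58.1 (R 4.3.3, intensity trend, two-sided) for genes averaging 0.5 FPKM or more, with Benjamini-Hochberg adjustment over all of them and a threshold of 0.05. The fit was tested on simulated data. Values with 1 number per heart went into an exact permutation test. Errors are SD unless SE is stated, and p-values measure the spread between these hearts. Members and gene lists were chosen with earlier results of these data known. Named are all 13 mRNAs and 2 rRNAs, tRNA genes with a mean of at least 50 recovered reads or past the threshold, chromosome 1 copies, and the 2 largest changes in each direction per nuclear gene list, of which 1 is not reported here. tRNA sequences were read from the GENCODE transcripts. The alternatives comprised no filter or a minimum of 1 FPKM, a pseudocount of 0.1, other scalings, voom on recovered reads, eBayes without trend, a replicate block, leaving out each heart and read minimums of 10 or 200. Chosen after seeing the data were scaling to total reads, adding the chromosome 1 copies, leaving out the hearts highest in Myl7 and using mRNAs outside the copied stretch. Same-numbered hearts did not deviate together (correlations -0.06, 0.17 and -0.01).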

Additional observations from a re-analysis of the deposited data

How the results depend on the processing

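Over the 30 mtDNA genes with enough reads and up to 17 alternatives each (510 values), 447 kept direction and side of the threshold, 39 lost a call, 17 gained one and 7 changed sign. Of the 16 called genes, 5 kept the call in every alternative (mt-Rnr2, mt-Tq, mt-Tw, mt-Tn and mt-Tc). The sign changes were of uncalled genes: mt-Co2 without cKO replicate 2 (-0.36 to 0.064 over the fits without 1 heart), mt-Atp8 without Ctrl replicate 1 or cKO replicate 3 (-0.42 to 0.12 likewise) and without the hearts highest in Myl7 (0.38), and mt-Tg by voom (-0.093) and without Ctrl replicate 2 or cKO replicate 1 (-0.53 to 0.55).

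Without the filter, 0 mRNAs were lower (4 at an unadjusted limma p under 0.05) and 0 tRNA genes higher (1 unadjusted), and the cause was not tested. With scaling without mtDNA genes or to total reads, 1 mRNA, mt-Nd1, was higher. To total reads, the median of the mRNAs was -0.36. Without the hearts highest in Myl7, which leaves 2 per group, 4 tRNA genes were lower and 0 higher. With the median mRNA as reference, 7 genes were lower and 9 higher relative to it, in place of 10 and 4 with the mean. Of the 12944 tested genes, 116 were lower and 10125 higher on that scale. Relative to the mean, fits without 1 heart gave 8 to 10 lower and 4 to 6 higher mtDNA genes. Leaving out 1 heart gave 4 to 6 lower mRNAs, 6 to 9 lower and 0 to 1 higher tRNA genes, a median of the mRNAs from -0.64 to -0.33 (the latter without cKO replicate 2), and ratios of mtDNA to nuclear subunits from -0.15 to 0.044 in complex I (positive without cKO replicate 2), from -0.37 (without cKO replicate 1) to -0.045 (without cKO replicate 2) in complex III, from -0.18 to -0.015 (without cKO replicate 2) in complex IV and from -0.23 to 0.13 in complex V (positive without Ctrl replicate 1, and 0.0032 without cKO replicate 3).

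With the replicate block, 5 mRNAs and 8 tRNA genes were lower and 1 tRNA gene higher. The hearts share only a number, and mt-Cytb lost its call (adjusted p = 0.0773). Depth limits the 7 tRNA genes with few reads. Shares, rRNA and strand ratios kept their sign in all alternatives run for them.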
